A study of Mus musculus with 11 samples.

Results

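The cells described here are choroid plexus epithelial cells that were captured with mouse brain cortex, compared between mice of 18 months and young adult mice of 7 to 11 weeks. A cell was kept when it had more than 500 and fewer than 6000 detected genes and less than 25% of its unique molecular identifiers (UMIs, 1 per captured RNA molecule) on mitochondrially encoded transcripts. A kept cell counted as choroid plexus epithelium when Ttr took at least 10% of its UMIs, when Folr1, Clic6 and Enpp2 together had at least 3 UMIs, and when the endothelial genes Cldn5 and Flt1 together had at most 2. The cells were thus selected on measured values of these 6 genes, which are described below without a test. The rule found 1944 such cells among 20700 kept cells of 5 libraries, and 4581 among the 50625 kept cells of all 11 libraries of the series.

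The 5 libraries compared were Adult 1, 2 and 3 (C57BL/6, 7 to 11 weeks, untreated) and Aged 1 and 2 (C57BL/6, 18 months, untreated). The 4 Juvenile libraries (C57BL/6, postnatal day 10, untreated) and the 2 EAE libraries (C57BL/6, 7 to 11 weeks, at the peak of experimental autoimmune encephalomyelitis after immunisation with a myelin oligodendrocyte glycoprotein peptide and pertussis toxin) only shared in the estimate of the spread and are given as side values. The study used female mice unless it stated otherwise, but the Y-linked gene Ddx3y stood at 87.8 and 91.8 CPM in the choroid plexus cells of Juvenile 3 and 4 and at 0 in those of the other 9 libraries, so that the juvenile group held tissue of both sexes. All mice were perfused with PBS, their cortex was digested with papain and Liberase, myelin was removed in a dense albumin solution, and cells were captured with the 10x 3′ chemistry, version 2. Each Adult or Juvenile sample pooled tissue of 6 mice and each Aged or EAE sample that of 3, so no value belongs to a single mouse. The labels do not say whether libraries of a group came from separate pools, so that p-values measure only the spread between these libraries. Choroid plexus is not named in the tissue label, which reads brain cortex, and the cells came along with the dissected cortex.

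The choroid plexus is a folded sheet of epithelial cells that hangs into the brain ventricles around a core of leaky capillaries. Its epithelium makes cerebrospinal fluid by moving sodium, chloride, bicarbonate and water from blood to ventricle, closes the blood-cerebrospinal fluid barrier with tight junctions, and secretes carrier proteins and growth factors into the fluid. Transthyretin (Ttr), which carries thyroxine and retinol-binding protein, is its most abundant secreted product. Otx2, a homeodomain transcription factor, is required to form and maintain this epithelium.

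The cells matched their label in genes that the rule did not use. The identity list held 28 genes, among them Kl (the ageing-related co-receptor Klotho), Otx2, Sostdc1, Kcnj13, Aqp1, Slc4a5 and Cldn2. Of its 27 tested members, 26 had a level in these cells at or above that of all other kept cells in each library of the age with the higher level. Kl stood at 931, 776 and 821 CPM (UMIs per 1000000 UMIs) in Adult 1, 2 and 3 and at 943 and 860 CPM in Aged 1 and 2, against 18.7 to 123 CPM in the other cells of the same libraries. Genes that mark the position along the brain were mostly those of its front. Six3 gave 19, 15 and 18 UMIs in the adult libraries and 31 and 13 in the aged ones, and Emx2 gave 3 to 7 in each library. The hindbrain genes Hoxa2, Hoxa3, Hoxb2, Hoxb3, Hoxb4, Hoxd3 and Meis1 gave 1 UMI in all, from Hoxa2 in Aged 1.

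The genes that chose the cells are a description only. On the scale of CPM of all UMIs, Ttr stood at 357316, 366416 and 351350 CPM in Adult 1, 2 and 3 and at 335390 and 324897 CPM in Aged 1 and 2. Folr1, the folate receptor that moves folate into cerebrospinal fluid, stood at 1007, 1082 and 1089 CPM in adult and 1002 and 918 CPM in aged libraries. Enpp2, the secreted enzyme autotaxin, stood at 19133, 15609 and 15238 CPM in adult and 13446 and 12562 CPM in aged libraries. The chloride channel protein Clic6 stood at 479 to 516 CPM in adult and at 671 and 589 CPM in aged libraries. Cldn5 and Flt1, which the rule limits, stood at 231 to 281 and 54.4 to 60.1 CPM in adult and at 161 to 203 and 43.5 to 55.8 CPM in aged libraries. At the lower edge of the Ttr limit, 35 adult cells held 8% to 10% of their UMIs on Ttr and stayed outside, and 12 held 10% to 12% and were inside, against 1 and 5 aged cells. Far more cells lay at the edge of the Cldn5 and Flt1 limit, where 467 adult cells with 2 such UMIs were inside and 359 with 3 were outside, against 148 and 103 aged cells.

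Depth and the makeup of the libraries differed between the ages. The choroid plexus cells of a library summed to 1402994 to 1847823 UMIs in adult and 824451 to 1379397 in aged libraries, with medians of 2419 to 2792.5 and 3335 to 3873 UMIs per cell. Adult 2 and Adult 3 stood closest together (chi-square per degree of freedom 1.35 over the genes of these cells, against 2.02 for Aged 1 and 2 and 4.27 to 4.43 between Adult 1 and the other adult libraries), and they were summed as 1 unit. Adult 1 stood apart in the Ttr UMIs of its other cells. In endothelial cells taken by a rule that only limits Ttr to under 10% of a cell's UMIs, Ttr stood at 48693 CPM in Adult 1, against 16824 and 17494 CPM in Adult 2 and 3 and 5564 and 8042 CPM in Aged 1 and 2. The 5 libraries shared 15 to 39 kept barcodes per pair, and at most 1 among choroid plexus cells.

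Choroid plexus epithelium made up a smaller part of the aged libraries. It was 522 cells or 16.4% of the kept cells in Adult 1, 481 cells or 12.7% in Adult 2 and 441 cells or 11.3% in Adult 3, against 299 cells or 5.87% in Aged 1 and 201 cells or 4.23% in Aged 2. Every adult share lay above both aged shares. Over units the mean was 14.2% ± 3.09 in adult and 5.05% ± 1.16 in aged (SD, n = 2 each), a difference of -9.16 percentage points, with p = 0.333 in a two-sided exact permutation test, the smallest p that 2 against 2 units allow. Over the 5 libraries the difference was -8.43 points and the exact permutation p was 0.1, again the smallest possible. The share depends on how much choroid plexus came with the dissected tissue and on the Cldn5 and Flt1 limit, which left out 32.4% to 54.6% of the Ttr-high cells of a library. With no such limit, an alternative chosen after seeing the data, the difference was -21.0 points, and with no Cldn5 or Flt1 UMI at all it was -2.72 points.

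Between the ages, 163 of 11219 tested genes (1.45%) changed at an adjusted p under 0.05 (edgeR quasi-likelihood test on summed UMIs, Benjamini-Hochberg over all tested genes), and such genes are said here to have risen or fallen. In aged cells 88 genes rose (0.784% of those tested) and 75 fell (0.669%). The risen genes include Tlx2, Spink8, Dlx4, Prom2 and Lcn2, which passed the filter on low counts only through groups of higher level. At an unadjusted p under 0.05 there were 1593 genes, 840 higher and 753 lower. All 163 called genes had every aged library on the same side of every adult library, and 161 kept their sign under every alternative that gave a value. The calls rest on these same libraries, and no share over all tested genes is given. A lack of overlap is thus no separate support, here or for the genes named below. Fits without Aged 1, without Aged 2 or with near-identical libraries of every group summed held 1 aged unit, and so no spread between aged units. Fits without Adult 1 or without both Adult 2 and 3 likewise held 1 adult unit, and so no spread between adult units. Leaving out Adult 2 or Adult 3 alone removed no unit, since the other library of that unit stayed. The number of calls depended on single libraries. It was 22 without Aged 1, 39 without Aged 2, 299 without Adult 1, 131 without Adult 2 and 143 without Adult 3, and 17, 33 and 124 of the 163 genes were among the calls without Aged 1, Aged 2 and Adult 1. It was 10 when near-identical libraries of every group were summed.

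Of the called genes, 83 had a level in choroid plexus cells at or above that of the other kept cells in each library of the age with the higher level, 57 of them risen and 26 fallen. The other 80 were lower than other cells in at least 1 such library, 63 of them in all 5 libraries, and include genes of neutrophils and oligodendrocytes that are given with the marker lists. The plot of fold change against level separates these classes.

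**Figure D1:**
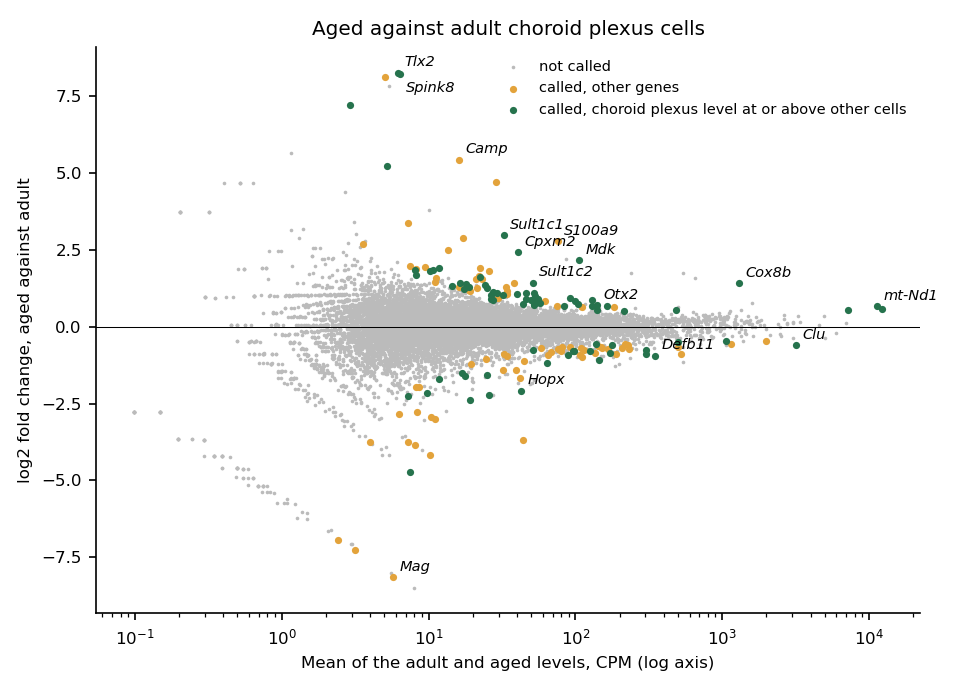
log2 fold change of each tested gene in choroid plexus cells, aged against adult, against its mean level in CPM on a log axis; grey points are genes not called, green points called genes at or above their level in other cells, and orange points the other called genes. Mdk (2.17), Cpxm2 (2.43), Sult1c1 (2.97) and Hopx (-2.08) stand out among the green points, while S100a9 (2.79) is orange.

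The genes named first are, in each direction, the 12 with the largest change among called genes that met the following conditions. They reached 50 CPM at the age of higher level and had a choroid plexus level at or above that of other cells. Every aged library also had to lie on the same side of every adult library. In all, 34 risen and 17 fallen genes met these conditions. The lack of overlap given below for the 24 genes was thus fixed by their choice. All 24 genes were also called with only adult and aged units in the fit, which leaves out the juvenile libraries of both sexes. Levels are CPM of the tested genes after TMM scaling, and each mean is over 2 units.

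Mdk, the gene of the secreted heparin-binding growth factor midkine, rose 4.49-fold. Its level was 42.2, 40.9 and 31.0 CPM in Adult 1, 2 and 3 and 178 and 168 CPM in Aged 1 and 2. Both aged libraries stood far above all 3 adult libraries, with a mean of 173 ± 6.75 against 39.0 ± 4.46 CPM (SD, n = 2), a log2 change of 2.17 ± 0.18 SE (edgeR, adjusted p = 1.37e-08). Other cells of the same libraries held 9.83 to 24.9 CPM. Mdk was called under all 20 alternatives, the loss of any library and the summing of near-identical libraries included (adjusted p = 0.000877 for the latter).

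Cpxm2, which encodes a secreted member of the carboxypeptidase family, stood at 16.6, 9.62 and 9.29 CPM in adult and 60.1 and 76.5 CPM in aged libraries. The groups did not overlap, and the gene rose by 2.43 ± 0.28 on the log2 scale (edgeR, adjusted p = 2.22e-05). It kept its call without any 1 library, with an adjusted p of at most 0.00167, but lost it when only cells with no Cldn5 or Flt1 UMI were used (adjusted p = 0.136).

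Sult1c1 and Sult1c2, which code for cytosolic sulfotransferases that attach sulfate to phenols and other small molecules, rose together. Sult1c1 went from 10.7, 6.41 and 3.87 CPM in adult to 67.4 and 47.2 CPM in aged libraries (log2 change 2.97 ± 0.32, edgeR adjusted p = 4.26e-06). Sult1c2 went from 22.6, 32.9 and 29.4 CPM to 65.0 and 86.7 CPM (log2 change 1.44 ± 0.23, edgeR adjusted p = 0.00142). For both genes each aged library exceeded each adult library, and other cells held at most 1.62 and 3.02 CPM. The calls held without any 1 library (adjusted p of at most 0.00817 and 0.0453), but that of Sult1c2 was lost when near-identical libraries were summed (adjusted p = 0.195). In cells with no Cldn5 or Flt1 UMI both calls were lost (adjusted p of 0.214 and 0.154). In those cells only Mdk and Rabgap1l of the 12 risen genes were called. Both genes lie on the minus strand of mouse chromosome 17 (GRCm38), Sult1c2 at 53829637 to 53846339 and Sult1c1 at 53961615 to 53990674, separated by 115275 bases that hold 6 annotated pseudogenes, 1 of them Sult1c2-ps1. How reads of such related sequences were split by the counting was not tested.

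The 250 bases before the RefSeq starts of these neighbours are shown because the genes rose together and Otx2, whose protein binds the core TAATCC, also rose (0.71 on the log2 scale). The sequences are from RefSeq on GRCm38.p6, 5′ to 3′ on the minus strand, Sult1c1 at chr17:53990632-53990881 and Sult1c2 at chr17:53845959-53846208. The RefSeq starts, at 53990631 and 53845958, lie inside the GENCODE spans given above, so that the Sult1c2 window falls wholly and the Sult1c1 window partly within the GENCODE gene. Capitals mark TAATCC on either strand (read as GGATTA from the opposite strand) and TATAAA; the 2 motifs do not overlap.
Sult1c1: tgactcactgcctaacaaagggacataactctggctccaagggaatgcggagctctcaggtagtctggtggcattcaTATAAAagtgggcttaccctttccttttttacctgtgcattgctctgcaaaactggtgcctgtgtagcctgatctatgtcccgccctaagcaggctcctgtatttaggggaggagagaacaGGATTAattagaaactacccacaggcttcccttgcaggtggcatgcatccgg
Sult1c2: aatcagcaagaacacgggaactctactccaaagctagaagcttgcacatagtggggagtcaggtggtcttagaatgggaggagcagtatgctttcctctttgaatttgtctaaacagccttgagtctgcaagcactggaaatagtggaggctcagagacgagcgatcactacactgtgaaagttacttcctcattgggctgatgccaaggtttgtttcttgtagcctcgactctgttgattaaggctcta
The Sult1c1 window held TATAAA and 1 TAATCC core, and the Sult1c2 window held neither set of letters. Of 32851 mouse promoter windows of this length, 6.25% held TAATCC and 12.4% held TATAAA on either strand. A match is a description of these letters and not a binding site.

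Cox8b, an isoform of a small subunit of cytochrome c oxidase that is better known from muscle and brown fat, rose 2.67-fold. It stood at 587, 780 and 884 CPM in adult and at 1806 and 1993 CPM in aged libraries, against 21.4 to 53.8 CPM in other cells. All adult values lay below both aged ones. The log2 change was 1.42 ± 0.27 (edgeR adjusted p = 0.0439), close to the limit, and the call was lost without Adult 1, Adult 2, Aged 1 or Aged 2 (adjusted p of 0.158, 0.0754, 0.259 and 0.162). Its paralogue Cox8a, at 2737 to 3654 CPM in adult and 3397 to 3766 CPM in aged libraries, was not called (log2 change 0.17).

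Several membrane and signalling genes rose by about 1 on the log2 scale. Itgb8 and Itgav, whose proteins pair as an integrin that activates latent TGF-beta, and Tgfbr3, the TGF-beta co-receptor betaglycan, rose by 0.94, 1.07 and 0.91. Itgb8 stood at 82.5, 44.1 and 48.8 CPM in adult and 133 and 106 CPM in aged libraries, and Itgav at 17.6 to 32.1 CPM and 51.0 to 56.0 CPM. Frmpd4, a scaffold protein gene, rose by 1.11, and Rabgap1l, the gene of a GTPase-activating protein for Rab proteins, rose by 1.09. Rlbp1, which encodes a carrier of retinaldehyde, stood at 36.2, 32.9 and 35.6 CPM in adult and 67.4 and 75.2 CPM in aged libraries, a rise of 1.01 ± 0.19. Spry2, an inhibitor of receptor tyrosine kinase signalling, rose by 0.92. The edgeR adjusted p of these 7 genes lay between 0.00435 and 0.0325, with no overlap between ages in any of them. Without Aged 1 only Spry2 of these 7 stayed called (adjusted p = 0.0465), and without Aged 2 only Frmpd4 (0.0157). Tgfbr3 also lost its call without Adult 2 (0.0770), and Spry2 without Adult 3 (0.0603).

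The 4 genes Tlx2, Spink8, Dlx4 and Prom2, at or near 0 in adult cells, are named after their values were seen and passed the filter on low counts only through groups of higher level, so that no test is given. Tlx2, a homeobox gene known from neural crest, gave no UMI in the 4703072 UMIs of the adult cells and 15 and 10 UMIs in Aged 1 and 2. Its aged level was 11.3 CPM (exact Poisson 95% interval 7.34 to 16.7, counting error only), so that even the lower end of that interval was at least 11.5-fold above the adult limit of 0.638 CPM that 3 UMIs over the group would give. Spink8, a member of a family of secreted serine protease inhibitors, gave no adult UMI and 11 and 13 aged UMIs, at least 10.9-fold higher in the same way. Dlx4, a homeobox gene, gave no adult UMI and 8 and 4 aged UMIs, and Prom2, a relative of the membrane protein gene Prom1, gave 1 adult and 14 and 7 aged UMIs. In all other kept cells of the aged libraries together these genes gave 6, 10, 2 and 11 UMIs. In choroid plexus cells of the 2 EAE libraries, also from mice of 7 to 11 weeks, Tlx2, Spink8, Dlx4 and Prom2 gave 40, 70, 13 and 11 UMIs, and in those of the 4 juvenile libraries 0, 5, 3 and 5.

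Among the 12 fallen genes Hopx, the gene of a small homeodomain protein that binds no DNA, changed most. It stood at 77.8, 64.9 and 58.9 CPM in adult and 17.9 and 14.0 CPM in aged libraries. No aged library came near an adult one, and the gene fell by 2.08 ± 0.33 on the log2 scale, 4.22-fold lower (edgeR adjusted p = 0.00396). The call was lost without Aged 1 (adjusted p = 0.138) and without Aged 2 (0.0676). When near-identical libraries of every group were summed, all 12 fallen genes lost their edgeR call (adjusted p = 0.0832 for Hopx, 0.398 for Defb11 and 0.426 for Wls), and 3 of the 12 risen genes, Mdk, Cpxm2 and Sult1c1, kept theirs. In cells with no Cldn5 or Flt1 UMI, Hopx, Gm5506 and Defb11 were the 3 fallen genes still called. In both settings all 24 genes kept their sign.

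Defb11, a gene of the beta-defensin family of antimicrobial peptides, stood at 385, 542 and 534 CPM in adult and 242 and 240 CPM in aged libraries, against 2.60 to 29.8 CPM in other cells. It fell by 0.94 ± 0.15 (edgeR adjusted p = 0.00135), 1.92-fold lower, and the aged range lay wholly below the adult range. Without Aged 1 its adjusted p was 0.0581. Serpinb1b, a serine protease inhibitor gene, stood at 116, 128 and 129 CPM against 65.8 and 77.8 CPM and fell by 0.79. Defb11 and Serpinb1b belong to multigene families, and how reads were split among their relatives was not tested.

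Of the other fallen genes, Gsn (gelsolin, which severs actin filaments) fell by 0.78, Wls (the carrier that brings Wnt proteins to the cell surface) by 0.77 and Pygb (the brain form of glycogen phosphorylase) by 0.75. Wls was the sole fallen gene of the 12 that stayed called without Aged 1 (adjusted p = 0.0167), as Defb11 was without Aged 2 (0.0407). The remaining 6 were Gm4735, Gm5506, Apoo-ps, Gm10123, BC002163 and Gm12338, at falls of 0.76 to 1.19 on the log2 scale. Without Adult 1 all but Gm5506 of these 6 lost their calls (adjusted p of 0.0566 to 0.182). All but Gm5506, which had no entry in the annotation used here, are annotated processed pseudogenes, that is, copies of other genes' transcripts. In all, 16 of the 75 fallen and 8 of the 88 risen genes were annotated pseudogenes, and their values are uncertain because reads of the parent genes may be assigned to them. The share of pseudogenes among all tested genes is not given, so that nothing is read from these counts.

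**Figure D2:**
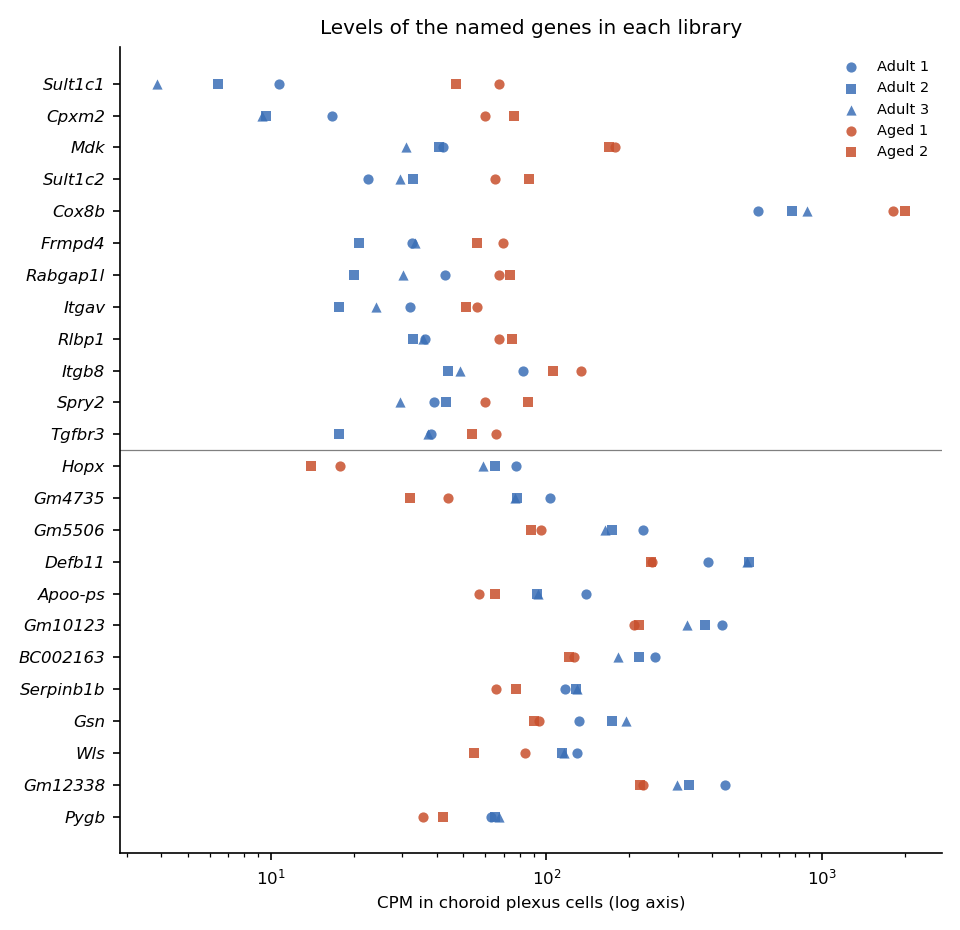
Level in CPM (log axis) of the 12 risen genes (above the line) and the 12 fallen genes (below it) in choroid plexus cells of each library, with adult libraries in blue and aged libraries in orange. In all 24 genes the 2 aged points lie on the same side of the 3 adult points, which their choice required. The widest gaps are in Sult1c1, Cpxm2, Mdk and Hopx.

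The cells that the Cldn5 and Flt1 limit left out, 629, 409 and 456 in Adult 1, 2 and 3 and 143 and 218 in Aged 1 and 2, were not used in the comparison, although they come from the same libraries. Otherwise they met the rule, and their median depth of 7376 to 11435 UMIs was above that of the cells compared. In these cells 11 of the 12 risen genes and all 12 fallen genes had every aged library on the same side of every adult library as before, Tgfbr3 being the exception. The genes had been chosen for this separation in other cells of the same libraries, and no share over all tested genes is given. The count is therefore no replication. Mdk stood at 44.9, 32.2 and 41.3 CPM in the adult and 111 and 107 CPM in the aged left-out cells, and Sult1c1 at 7.81, 4.25 and 3.73 CPM and 62.8 and 39.9 CPM. Cox8b stood at 652, 689 and 869 CPM and 1551 and 1673 CPM. Hopx stood at 67.6, 49.4 and 49.7 CPM and 9.36 and 14.5 CPM. Slc12a2 and Gpx3, named below, overlapped between the ages in the left-out cells. With these cells added back, an alternative chosen after seeing the data, 200 genes were called, of which 81 were among the 163. Of the 12 risen genes 7 kept their call, all but Cox8b (edgeR adjusted p = 0.0569), Rabgap1l (0.266), Itgav (0.0709), Itgb8 (0.139) and Tgfbr3 (0.370). Of the 12 fallen genes 5 kept it, Hopx, Gm5506, Defb11, Serpinb1b and Gm12338. The call of Slc12a2 was also lost (log2 change 0.21, edgeR adjusted p = 0.480).

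**Figure D3:**
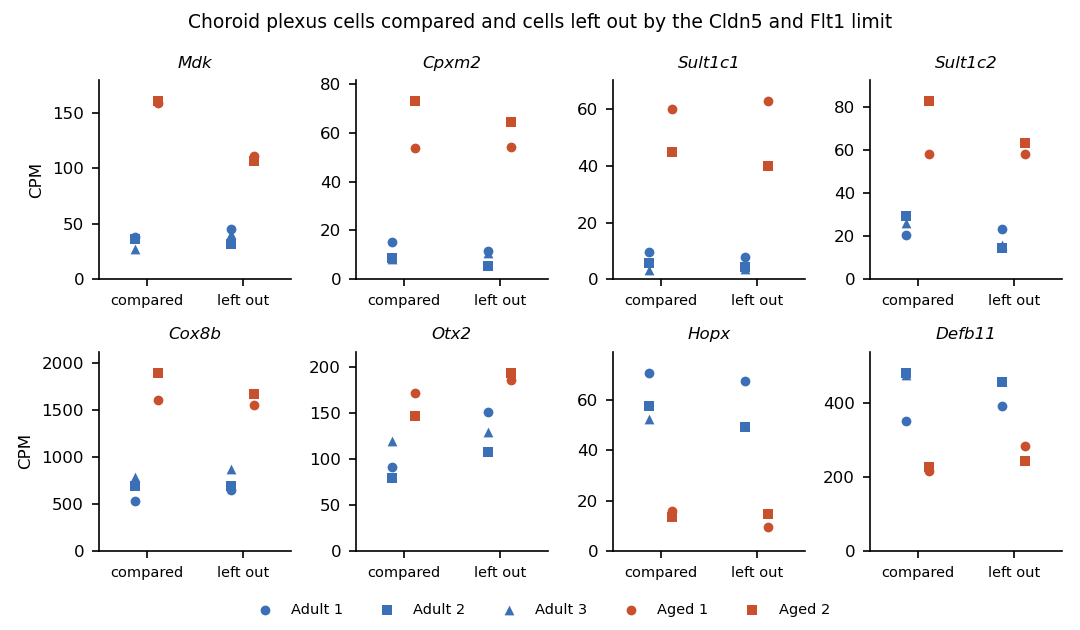
Level in CPM of all UMIs, from 0, of 8 genes in the choroid plexus cells compared and in those left out by the Cldn5 and Flt1 limit, by library (adult blue, aged orange). Mdk, Cpxm2, Sult1c1, Sult1c2, Cox8b and Otx2 lie higher, and Hopx and Defb11 lower, in both aged libraries in either set of cells.

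The levels were also read as shares of cells. Each cell was thinned to 1500 UMIs, which left 446, 395 and 359 adult and 287 and 175 aged cells and dropped 76, 86 and 82 and 12 and 26 shallower ones. An Mdk UMI was then seen in 6.50%, 3.54% and 3.90% of adult and 17.1% and 18.3% of aged cells (unthinned 7.71% to 11.9% and 36.5% and 36.3%). In endothelial cells of the same libraries, which stand for the background, 0.313% to 1.79% of thinned cells held an Mdk UMI, at medians of 2251 to 3544 UMIs per cell before thinning. A Cox8b UMI was seen in 45.3%, 44.1% and 51.3% of adult and 73.5% and 73.1% of aged cells (endothelial cells 2.21% to 9.25%; unthinned choroid plexus 57.0% to 60.1% and 84.9% and 78.1%). Hopx was seen in 11.2%, 6.58% and 5.29% of adult and 1.74% and 1.71% of aged cells (endothelial cells 0.0820% to 0.325%; unthinned 14.3% to 21.1% and 6.35% and 5.47%). For these 3 genes the aged shares lay outside the adult range in the direction of the summed levels. The same held for 10 of the 12 risen and 12 of the 12 fallen genes, but not for Rabgap1l and Spry2. These shares come from the cells in which the genes were chosen, so that they are no separate support. No share over all tested genes is given. For Spry2 and Itgav the endothelial shares overlapped the adult choroid plexus ones. For Tgfbr3 every endothelial share lay above every adult choroid plexus share, and the endothelial range took in both aged ones. For Wls, Pygb, Gm4735 and Gm10123 the endothelial shares overlapped the aged choroid plexus ones. In these genes the endothelial shares do not stand for background. Sult1c1 overlapped only through Adult 2, where no thinned choroid plexus cell held a UMI of it. A Rabgap1l UMI was seen in 6.28%, 2.78% and 5.01% of adult and 5.23% and 6.29% of aged thinned cells (endothelial cells 1.80% to 2.66%; unthinned choroid plexus 4.37% to 12.3% and 22.1% and 23.9%). A Spry2 UMI was seen in 4.93%, 3.54% and 3.62% of adult and 4.88% and 8.57% of aged thinned cells (endothelial cells 3.39% to 4.34%; unthinned choroid plexus 6.03% to 8.81% and 13.7% and 14.9%).

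Of 27 tested identity genes 21 had a positive log2 change, with a median of 0.08, beside 5681 of 11219 and a median of 0.01 over all tested genes, and 1 rose (3.70% of the list, beside 1.45% of all tested genes). That gene was Otx2, at 101, 89.8 and 135 CPM in adult and 193 and 154 CPM in aged libraries, a rise of 0.71 ± 0.14 (edgeR adjusted p = 0.012). The adult range ended below the lower aged value. The call was lost without Aged 1 (adjusted p = 0.443) and without Adult 2 (0.0544). Igfbp2, which binds insulin-like growth factors, stood at 2252 to 2681 CPM in adult and 2195 and 2734 CPM in aged libraries and was not called, nor was 1500015O10Rik, the gene of the secreted peptide augurin, at 3134 to 3599 and 2458 and 2845 CPM (log2 change -0.35).

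Of 26 tested ion and water transport genes 13 had a positive change, the median was 0.00, and Slc12a2 alone rose (3.85% of the list, beside 1.45% of all tested genes). Its protein, the sodium-potassium-chloride cotransporter on the fluid side of the epithelium, had RNA levels of 183, 170 and 170 CPM in adult and 282 and 223 CPM in aged libraries (log2 change 0.52 ± 0.13, edgeR adjusted p = 0.0449). Both aged values lay above the adult ones, but the call was lost without Adult 3, Aged 1 or Aged 2 (adjusted p of 0.0522, 0.634 and 0.0593). Not called were the water channel gene Aqp1 (-0.18), the sodium pump subunit gene Atp1b1 (0.16), the bicarbonate transporter gene Slc4a5 (0.50, adjusted p = 0.0771), the carbonic anhydrase gene Car2 (-0.14) and Fxyd1 (0.05), which modulates the sodium pump. None of the 20 tested tight junction and polarity genes was called, at a median of -0.02, with 2 higher and 1 lower at an unadjusted p under 0.05. Ezr, the gene of the microvillus protein ezrin, had a log2 change of -0.25, and Ctnna1, alpha-catenin, had 0.21.

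Among 37 tested genes of secreted proteins 2 rose and 4 fell (16.2% of the list, beside 1.45% of all tested genes), at a median of -0.04. Mdk and Gpx3, the secreted glutathione peroxidase, rose. Gpx3 stood at 5.42 to 22.4 CPM in adult and 38.2 and 31.9 CPM in aged libraries (log2 change 1.27 ± 0.23, edgeR adjusted p = 0.00435). The groups did not overlap, and the gene lost its call without Aged 1 (0.265) and without Adult 3 (0.0576). Clu, the gene of the secreted chaperone clusterin, stood at 4157, 3473 and 3477 CPM in adult and 2592 and 2447 CPM in aged libraries and fell by 0.60 ± 0.12 (edgeR adjusted p = 0.00875). All aged Clu values were below all adult ones, and the call was lost without Aged 1 (0.114) and without Aged 2 (0.116). Sparc, Igfbp7 and Apod fell by 0.73, 0.59 and 1.23, but were higher in other cells (1126 to 2456, 1279 to 2124 and 87.5 to 200 CPM) than in choroid plexus cells (170 to 298, 175 to 285 and 7.65 to 28.5 CPM). Apoe and Cst3, a lipid carrier and a protease inhibitor gene of high level, were not called (-0.22 and -0.38).

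Of 41 tested nutrient and hormone transport genes, Slc2a1 (the glucose transporter GLUT1) and Slco1a4 (an organic anion carrier) fell, by 0.69 and 0.65, and none rose, at a median of -0.06. That is 4.88% of the list, beside 1.45% of all tested genes. Both are endothelial genes too, at 1356 to 1675 and 984 to 1696 CPM in other cells against 125 to 281 and 115 to 195 CPM in choroid plexus cells. Slc22a17 (-0.31) was not called.

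Immune gene lists gave few calls. Of 23 tested MHC class I and peptide loading genes none was called, 3 were lower at an unadjusted p under 0.05, and the median was -0.04. B2m stood at 577 to 746 CPM in adult and 643 and 735 CPM in aged libraries. All 6 tested MHC class II genes had positive changes of 0.36 to 0.84 at a median of 0.56, none called by edgeR and 3 at an unadjusted p under 0.05, and all 6 were lower in choroid plexus than in other cells. Cd74, the invariant chain gene, stood at 131, 71.3 and 55.8 CPM in adult and 163 and 180 CPM in aged choroid plexus cells, against 1196 to 1660 and 2217 to 2317 CPM in other cells. Of 33 type I interferon response genes none was called, 11 had a positive change and 2 were lower at an unadjusted p under 0.05, at a median of -0.21. Ifi27, at 879 to 1087 CPM in adult and 931 and 948 CPM in aged libraries, and Ifitm3 had changes of -0.03 and -0.19. Of 16 interferon gamma response genes none was called, also at an unadjusted p under 0.05, at a median of -0.31.

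Of 25 complement and acute phase genes A2m and Nfkbia were called, at a median of 0.29. The share of calls in this list, 12% beside 1.45% of all tested genes, also counts Lcn2. That neutrophil gene, at no more than 1.60 CPM in any adult library, passed the filter on low counts only through groups of higher level. Its call is therefore no support, and it is given with the neutrophil genes. A2m, the gene of the broad protease inhibitor alpha-2-macroglobulin, stood at 95.6, 97.0 and 75.9 CPM in adult and 147 and 187 CPM in aged libraries, against 2.28 to 11.4 CPM in other cells, and rose by 0.87 ± 0.16 (edgeR adjusted p = 0.00396). Its aged values lay clear of the adult ones, and the call was lost without Aged 2 (0.0853). Nfkbia, the NF-kappaB inhibitor gene, fell by 0.69 but was higher in other cells. The complement regulator gene Cd59a had 0.37 and was not called.

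Stress and ageing lists stayed mostly without calls. Of 31 immediate early and heat shock genes 26 had a change at or below 0, the median was -0.36 and 9 were lower at an unadjusted p under 0.05, but edgeR called none. The chaperone gene Hsp90ab1 came nearest, at 797 to 918 CPM in adult and 667 and 612 CPM in aged libraries (edgeR adjusted p = 0.0915). DESeq2 called 1 gene of this list lower, and none of the other lists without a call by edgeR held one by DESeq2. Endoplasmic reticulum stress genes (15 tested, median 0.02), circadian clock genes (17, median 0.01), glucocorticoid response genes (9, median 0.32) and senescence and cell cycle arrest genes (14, median -0.10) held no call, with 2 higher and 2 lower, 0 and 0, 1 and 1, and 0 and 1 at an unadjusted p under 0.05. The cell cycle inhibitor genes Cdkn1a and Cdkn1c had changes of 0.00 and 0.03. Of 31 metal ion and antioxidant genes Gpx3 alone rose (3.23% of the list, beside 1.45% of all tested genes), at a median of -0.07, and the ferritin gene Fth1 (0.37) and the metallothionein gene Mt3 (-0.06) were not called. Of 27 lysosome and proteostasis genes 1 rose and 1, the protease gene Ctsd, fell by 0.47 (7.41% of the list), at a median of -0.08, and of 21 lipid and cholesterol genes Apod fell (4.76% of the list), at a median of -0.19. The 3 tested telencephalic position genes held no call, and none of the 8 hindbrain position genes could be tested. Of 20 called list members with at least 20 CPM at the higher age, 15, 16 and 17 stayed called without Adult 1, 2 and 3, but only Mdk and A2m without Aged 1 and only Mdk, Otx2, Gpx3, Slc2a1, mt-Nd1 and mt-Cytb without Aged 2.

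**Figure D4:**
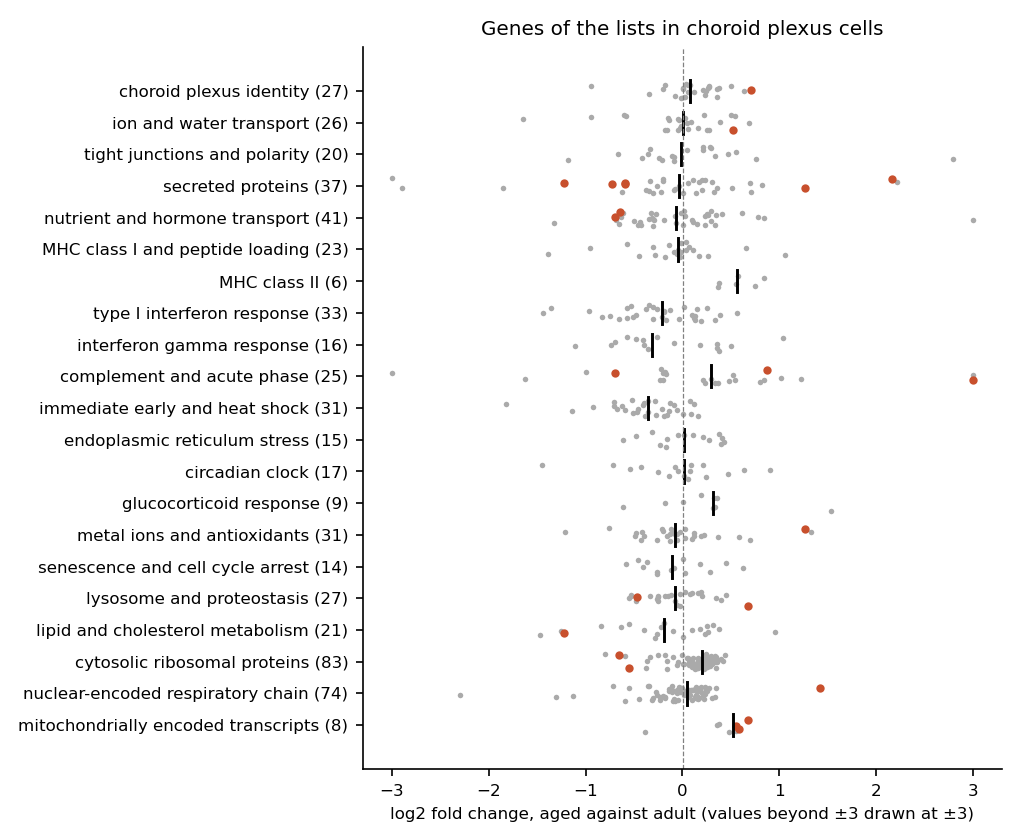
log2 fold change, aged against adult, of each tested member of the gene lists (points, held within -3 and 3), with called members in orange, the median of each list as a black bar and the median of all tested genes as a dashed line. The largest list medians are those of MHC class II (0.56) and of mitochondrially encoded transcripts (0.52), and 5 of the 31 points of the immediate early and heat shock list lie above 0.

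Some mitochondrially encoded transcripts rose. Of 8 tested, 7 had a positive change and 3 rose (37.5% of the list, beside 1.45% of all tested genes), mt-Nd1 by 0.68, mt-Cytb by 0.58 and mt-Nd4 by 0.55, which encode subunits of respiratory complexes I and III. mt-Nd1 stood at 8227, 8765 and 9638 CPM in adult and 15583 and 12353 CPM in aged libraries (edgeR adjusted p = 0.00314, and 0.272 without Aged 1). The median share of mitochondrial UMIs per choroid plexus cell was 1.92% to 2.31% in the adult libraries and 3.42% and 2.91% in Aged 1 and 2, and whether this reflects RNA quality was not tested. Of 74 nuclear-encoded respiratory chain genes 41 had a positive change, the median was 0.04, and Cox8b alone rose. Of 83 cytosolic ribosomal protein genes 68 had a positive change at a median of 0.20, none rose by the test, 20 were higher at an unadjusted p under 0.05, and Rps28 and Rps29 fell by 0.66 and 0.55 (2.41% of the list, near the 1.45% of all tested genes).

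RNA of other cell types moved with age in these cells. Of 3 tested neutrophil markers S100a9 and Retnlg rose (66.7% of the list). Of 6 oligodendrocyte markers 2 were called lower (33.3%), among them Cldn11. That gene passed the filter on low counts only through groups of higher level. Its call, counted in the 33.3%, is therefore no support. Over all tested genes 1.45% were called. S100a9 stood at 13.1, 22.4 and 24.8 CPM in adult and 130 and 136 CPM in aged choroid plexus cells, against 78.6 to 155 and 1524 to 1751 CPM in other cells. Cldn11, a tight junction gene of myelin, stood at 13.1, 32.1 and 20.1 CPM and 1.62 and 3.83 CPM, against 137 to 361 and 20.8 to 26.4 CPM in other cells. Both genes moved in the same direction in the cells around them. Camp, Ngp and Lcn2, granule genes of neutrophils, stood at no more than 2.40, 3.21 and 1.60 CPM in any adult library and at 26.8, 49.7 and 8.94 CPM or more in each aged one. They passed the filter on low counts only through groups of higher level, so that no test is given for them. The myelin gene Mag went from 10.7, 10.4 and 13.9 CPM to 0 in both aged libraries, for which no test is given either. The genes of this paragraph are named after their values were seen.

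Summed over their markers, the neutrophil list stood at 41.1 to 70.9 CPM in adult and 265 to 309 CPM in aged choroid plexus cells, which was 10.6% to 19.8% and 5.48% to 6.82% of its level in other cells. Of its 4 genes Ly6g was at 0. The oligodendrocyte list stood at 176 to 248 and 42.0 to 55.8 CPM, 7.41% to 10.2% and 8.27% to 9.65% of its level in other cells. The endothelial list stood at 1701 to 1731 and 1111 to 1511 CPM, with Itm2a and Slco1a4 fallen of its 8 tested genes (25%, beside 1.45% of all tested genes). The mural list stood at 274 to 455 and 107 to 196 CPM with no call. Microglia (869 to 2037 and 1078 to 1465 CPM), perivascular macrophages (191 to 395 and 294 to 500), astrocytes (50.6 to 219 and 67.4 to 92.2), neurons (8.26 to 73.1 and 14.6 to 15.9), lymphocytes (29.9 to 74.7 and 43.5 to 66.7) and red blood cells (384 to 3023 and 1509 to 5992) overlapped between the ages and held no call. Except for neurons, the overlap came from Adult 1 alone, and both aged libraries lay above Adult 2 and Adult 3. Microglia markers, for example, stood at 2037 CPM in Adult 1, against 869 and 1027 CPM in Adult 2 and 3. Ependymal markers (245 to 271 and 193 to 211 CPM) and fibroblast-like markers (157 to 285 and 184 to 215 CPM) were above their level in other cells, and none of their genes was called. The part of such RNA in the changes of the lists above was not tested. Mdk, Cpxm2, Sult1c1, Sult1c2, Cox8b, Hopx, Defb11, Otx2 and A2m were all higher in choroid plexus cells than in the other cells of each library.

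**Figure D5:**
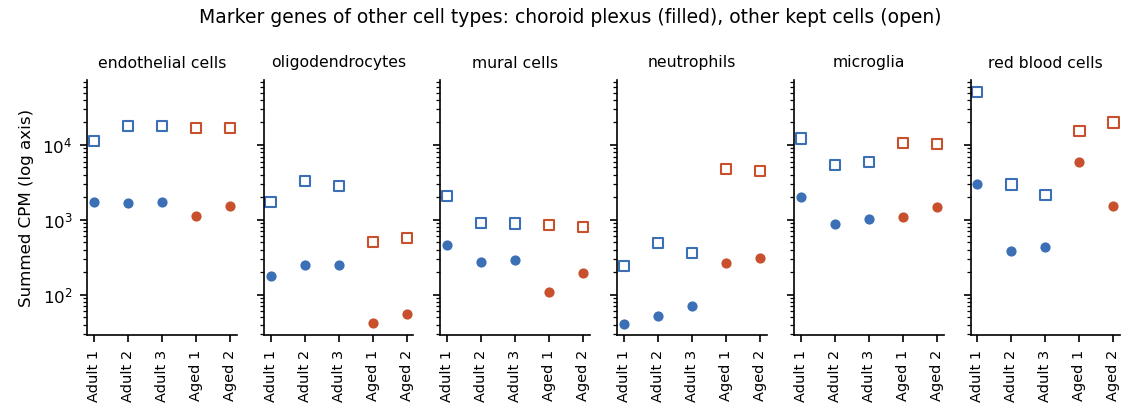
Summed CPM (log axis) of the marker genes of 6 other cell types in choroid plexus cells (filled) and in the other kept cells (open) of each library, adult in blue and aged in orange. The neutrophil list is higher (265 to 309 against 41.1 to 70.9 CPM) and the oligodendrocyte list lower (42.0 to 55.8 against 176 to 248 CPM) in aged choroid plexus cells, and both move the same way in the other cells.

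Whether an age difference was larger in choroid plexus than in another cell type was tested as a difference of log2 changes with the unit as a block. By the rule for endothelial cells and microglia only 9 and 2 cells of Adult 1 qualified, so that this library was dropped and 1 adult unit stood against 2 aged units. Against endothelial cells 472 of 13322 genes (3.54%) and against microglia 275 of 11115 genes (2.47%) differed at an adjusted p under 0.05. With a wider rule chosen after seeing the data, which brought Adult 1 back, the counts were 37 of 11867 (0.312%) and 26 of 11119 (0.234%). With 1 adult unit the first rule gives no spread between adult units, so its calls are no separate support. With the wider rule Slc12a2 and Rabgap1l, of the genes named as risen or fallen at or above the level of other cells, were the 2 that differed from both cell types. The Slc12a2 change was larger in choroid plexus by 1.55 and 1.54 on the log2 scale against endothelial cells and microglia (edgeR adjusted p of 0.0439 and 0.0123), and that of Rabgap1l by 1.42 and 2.19 (0.0361 and 0.0352). Both genes lost their own age call with the left-out cells added back. Mdk differed from microglia (2.55, edgeR adjusted p = 0.0228), while against endothelial cells its adjusted p was 0.211. No other change named here differed from both cell types. The change of Slc12a2 in choroid plexus itself was 0.52, so that the rest of its difference lay with the other cell types. Choroid plexus RNA in those cells also differed with age. In endothelial cells of the wider rule Enpp2 stood at 1991, 639 and 574 CPM in Adult 1, 2 and 3 and at 212 and 384 CPM in Aged 1 and 2. Its part in these differences was not tested, and no change is taken as particular to choroid plexus.

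Levels in the juvenile and EAE libraries are set beside these values without a test, and the aged and the other comparisons share the adult libraries. Cox8b stood at 9.67 to 20.5 CPM in the 4 juvenile, 587 to 884 in the adult, 1806 to 1993 in the aged and 324 and 362 CPM in the EAE libraries. Defb11 had the opposite order over the untreated ages, at 1013 to 1186, 385 to 542 and 240 to 242 CPM, and stood at 177 and 208 CPM in EAE. Mdk was high at both ends of the age range, at 104 to 155 CPM in juvenile, 31.0 to 42.2 in adult and 168 to 178 in aged libraries, with 39.9 and 39.7 CPM in EAE. Sult1c1 stood at 0.156 to 0.523 CPM in juvenile and 9.33 and 15.0 CPM in EAE libraries, against 3.87 to 10.7 in adult and 47.2 to 67.4 CPM in aged ones. Hopx was highest in the adult libraries, with 5.91 to 15.7 CPM in juvenile and 18.7 and 25.8 CPM in EAE libraries. Otx2, by contrast, was lowest in the adult libraries, at 176 to 211 CPM in juvenile and 251 and 260 CPM in EAE libraries.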

How the data were processed

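The authors deposited 1 table of raw UMI counts per gene and cell barcode for each of 11 libraries. Per their processing notes, reads were demultiplexed with bcl2fastq, handled with UMI-tools, aligned to mm10 with STAR and counted with featureCounts; the versions in the notes differ from those in the study's methods, and the annotation is not given in the sources used here. The values are deposited counts with no normalization, in 26921 genes.

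Cells were filtered on detected genes (above 500, below 6000) and on mitochondrial UMIs (below 25%), the limits of the study, and 50625 cells were kept. Choroid plexus cells were taken by the rule on Ttr, Folr1, Clic6, Enpp2, Cldn5 and Flt1, and their UMIs were summed per library. Adult 2 and Adult 3, near sampling noise of each other, were summed as 1 unit. Every other library stayed a unit of its own, including the pairs that an alternative sums as near-identical. Genes passing filterByExpr were tested on these sums by the robust quasi-likelihood method of edgeR 4.0.16 with TMM scaling (limma 3.58.1, R 4.3.3) over 10 units of the 4 groups, contrast Aged minus Adult. The 6 genes of the rule were left out of counts of calls. Adjusted p-values are Benjamini-Hochberg over all tested genes. The test was tried on simulated data first. Scrublet in scanpy 1.11.5 marked 818 of 50625 cells (1.62%) as doublets, but 2 of 4752 (0.0421%) in Aged 2, where it had not worked; doublets were kept and left out as an alternative. DESeq2 1.42.0 was another alternative.

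The genes named were the 12 with the largest change in each direction under the conditions given in the report, and of each of 23 gene lists the called members with at least 20 CPM (at most 6) and the 2 of highest level; other genes were named after their values were seen, and a few genes that the rule names are not reported here. The members, the lists and the 12 marker lists were chosen with earlier results of these data known. Gene positions and biotypes are from GENCODE M21 on GRCm38, where 159 of the 163 called genes had an entry, and promoters are from RefSeq. Intervals and limits cover counting error only. Python 3.11.15 with numpy 2.4.6 and scipy 1.17.1 was used.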

Additional observations from a re-analysis of the deposited data

Results flagged for a closer look

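These differences between the age effects of cell types were singled out by a test of the difference. By the first rule for the other cell type Adult 1 was dropped, which left 1 adult against 2 aged units and no spread between adult units, so that those values are no separate support beside the values with the wider rule, which was chosen after seeing the data. The change of Slc12a2 in choroid plexus minus that in endothelial cells was 1.25 on the log2 scale (edgeR adjusted p = 2.8e-06), and 1.55 with the wider rule (0.0439). Against microglia it was 1.34 (0.000655), and 1.54 with the wider rule (0.0123). In other cells Slc12a2 stood at 34.3 to 62.6 CPM in adult and 23.7 and 21.9 CPM in aged libraries, against 170 to 183 and 282 and 223 CPM in choroid plexus cells.

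The change of Rabgap1l was larger in choroid plexus by 1.496 against endothelial cells (edgeR adjusted p = 0.000605; 1.42 and 0.0361 with the wider rule) and by 2.27 against microglia (0.0185; 2.19 and 0.0352). It stood at 17.3 to 20.2 CPM in adult and 15.6 and 17.5 CPM in aged other cells, against 42.8, 20.04 and 30.2 and 67.4 and 74.0 CPM in choroid plexus cells.

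For S100a9, a neutrophil gene, the change in choroid plexus minus that in microglia was -2.42 (edgeR adjusted p = 1.06e-05; -2.39 and 0.00167 with the wider rule), and for the myelin gene Mag it was -7.25, and -7.58 with the wider rule. Mag had no UMI in aged choroid plexus cells, so that the size of its difference depends on the prior count, and it passed the filter on low counts only through groups of higher level, so that no p is given for it. S100a9 and Mag were lower in choroid plexus than in other cells of every library.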

How the results depend on the processing

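The 163 calls between the ages became 324 with no filter on low counts, 275 (73 higher, 202 lower) with only adult and aged units, 104 with Ttr at 20% or more of UMIs, 19 with no Cldn5 or Flt1 UMI, 10 with near-identical libraries of every group summed and 278 without Adult 2 and 3. Leaving out 1 library gave 22 to 299 calls. The cause was not tested. DESeq2 gave 129 calls, 110 of them shared. Libraries as deposited, with no block, gave 222 calls (123 higher, 99 lower). Samples of the 2 ages share only a replicate number. With the replicate block, over libraries as deposited, there were 407 calls (166 higher, 241 lower), and the deviations of same-numbered libraries correlated at 0.12 and 0.05. Those of differently numbered libraries correlated at -0.12, -0.05, -0.13 and 0.13, the last between Adult 3 and Aged 2. With 2 aged libraries, each adult library gives the same value with opposite signs against them. Tests against endothelial cells gave 841 calls with libraries as deposited, 37 with the wider rule and 344 to 472 without 1 adult library. With RLE size factors the split moved from 240 higher and 232 lower to 198 and 322. Tests against microglia gave 130 calls with Ttr left out, 426 as deposited, 26 with the wider rule and 151 (without Adult 3) to 275 without 1 adult library, and RLE moved the split from 121 and 154 to 144 and 106. In both tests the highest of these is the fit without Adult 1, which is the full fit again because the rule had already dropped that library, so that it is no check of a lost library. Fits without Aged 1 or Aged 2 could not be run for lack of residual degrees of freedom, nor without both Adult 2 and 3, since no adult unit was left. Libraries were not left out under the wider rule. The share of choroid plexus cells stayed lower in aged libraries in every setting, with a difference of -6.97 to -9.98 points without 1 library. Of 84 named genes none reversed in 1662 values under alternatives; 238 values lost a call and 11 gained 1.

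Depth limits genes of low level, since 3 UMIs over the adult choroid plexus cells already stand for 0.638 CPM. The ages also differ in mice per pool (6 and 3), in kept cells per library (3184 to 3890 and 4752 to 5093) and in the Ttr UMIs of other cells, and age cannot be told apart from these.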
